A study of Homo sapiens with 8 samples.

Results

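HNF4A, a nuclear receptor of liver and gut epithelium, was mapped by ChIP-seq in ESO26 cells, and the regions described here are its strong binding sites that carried no GATA4 peak. They were chosen by the measured values themselves, namely a −log10 q of at least 10 in the HNF4A peak list and no overlap of 1 base or more with any peak of the GATA4 list. The rule left 1567 of the 5494 HNF4A peaks (28.5%). Of the remaining HNF4A peaks, 3474 were weaker and also free of GATA4, 210 were strong and shared with GATA4, and 243 were weaker and shared. The GATA4 list held 2607 peaks. In these texts q is the false discovery rate that the peak caller gave to a peak, so a larger −log10 q stands for a stronger peak.

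ESO26 cells are a cultured line from a human adenocarcinoma of the oesophagus. Both factors were mapped in it with 1 library each, HNF4A with an antibody to the protein and GATA4 with an antibody to a Flag tag on GATA4. How the tagged GATA4 was brought into the cells is not given in the sources used here, and binding by untagged GATA4 was not measured. RNA-seq of the same line comprised 2 libraries of cells with HNF4A knockdown by siRNA and 2 libraries of control cells, and 2 libraries of chromosome conformation capture (4C) with the HNF4A promoter as bait were not analysed here. With 1 library per factor there is no replicate check of any peak, and intervals below cover counting error only.

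HNF4A binds DNA as a pair of HNF4A proteins on a direct repeat of a short hexamer, close to promoters and in distant enhancers, and it maintains genes of lipid transport, metabolism and epithelial structure in liver and intestine. GATA4 is a zinc-finger factor of foregut and cardiac tissue that binds short GATA elements and shares many enhancers with HNF4A in endodermal cells. A site with HNF4A and no GATA4 peak is one where HNF4A was detected and tagged GATA4 did not reach the limit of peak calling. Peak positions refer to hg19, the build in the submitters' processing notes. No genome or gene annotation of that build was used here, so the letters at the sites and the genes beside them are not given.

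Fragments at the summit of each site were recovered from the deposited values. The fold enrichment of a peak, its signal value, and its p-value were taken to come from a whole number of overlapping fragments at the summit and a local background level, with 1 added to both in the fold and a Poisson upper tail for p. This returned the deposited −log10 p to within 0.001 in 100% of the peaks of both lists, and the next best whole number was at least 10 times farther off in 100% of them. The lowest background was 1.17 fragments in the HNF4A list and 0.791 in the GATA4 list. At these floors the HNF4A list began at 9 fragments and the GATA4 list at 7. A site on the GATA4 floor with 6 tagged GATA4 fragments or fewer would thus count as free of GATA4.

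The background of both lists had the marks of 1 common track. Among 80 pairs of HNF4A and GATA4 summits within 40 bases of each other, the median ratio of the backgrounds was 1.48, the same as the ratio of their floors. Pairs with both summits on the floor give this ratio by construction, and their number was not counted. In 32 pairs both backgrounds were whole multiples of the step of their list, and in 24 of these the multiple was the same. The step itself was 0.821 fragments in the HNF4A list and 0.547 in the GATA4 list, a ratio of 1.5. Which library gave the background is not given in the sources used here, and the background values of both lists are treated below as 1 measurement.

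The strong sites without GATA4 held a median of 24 fragments at the summit, with a middle range of 20 to 30 and extremes of 17 and 234. Their median local background was 1.64 fragments, and 252 of them (16.1%) lay on the floor. The median signal value was 9.09, from 3.16 to 38.7, and the median width 573 bases, from 262 to 3148. The weaker HNF4A peaks without GATA4 had a median of 14 fragments over a median background of 1.64 as well. These values chose the sites and are given as a description.

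**Figure D1:**
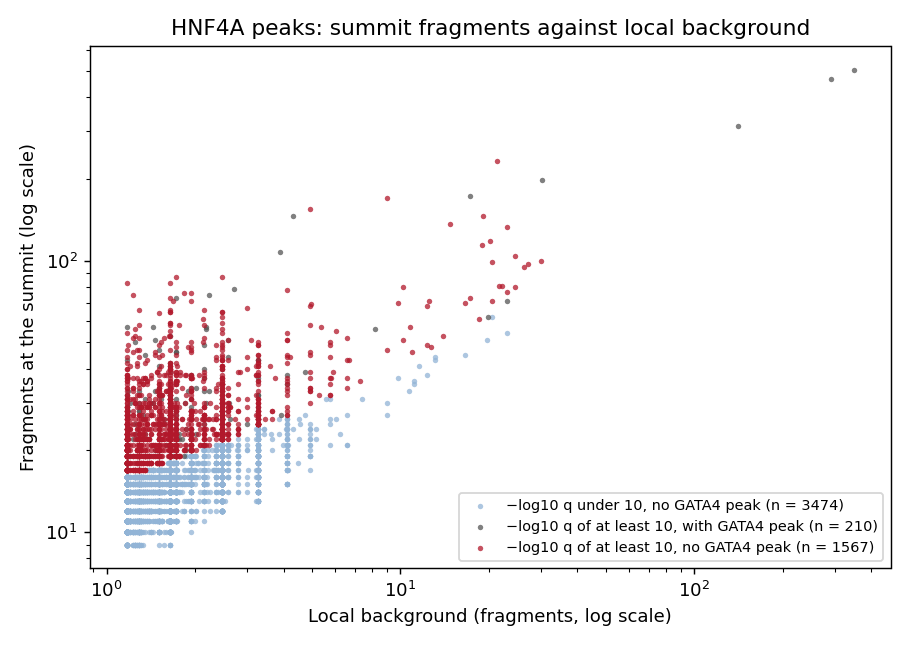
Fragments at the summit against local background for HNF4A peaks, both on log scales, with 1 point per peak. The 1567 strong peaks without GATA4 (red) begin at 17 fragments, lie mostly over a background of 1.17 to 4.10, and include 28 peaks at a background of 10 or more.

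The number of sites fell off with strength. Of the 1567 sites, 763 had a −log10 q from 10 to 15, 443 reached 20, 51 reached 50 and 6 reached 100. Just inside the threshold, 4 sites shared the lowest −log10 q, 10.11052, in all deposited decimals. One of them, chr1:85156165-85156507, had 17 fragments (exact 95% Poisson interval 9.90 to 27.2) over a background of 1.35 and a signal value of 7.65. Just outside it, 76 peaks without GATA4 shared a −log10 q of 9.99838 in the same way. One of these, chr1:14125513-14126317, had 16 fragments (9.15 to 26.0) over a background of 1.17 and a signal value of 7.84. One fragment and a slight change of background thus separated the sites from the next peaks, and the counting intervals of both overlapped almost wholly.

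The threshold on q asked for different numbers of fragments at different backgrounds. At a background under 1.2 the fewest fragments of a site were 17, from 5 to 10 they were 32, and at 10 or more they were 46. The lowest signal value of a site, taken separately, was 8.25 at a background under 1.2 and 3.16 at 10 or more. Signal value and −log10 q ranked the sites alike in the main, with a Spearman rho of 0.845 across the 1567 sites, which share 1 library. Of the 10 sites with the largest −log10 q, 7 were also among the 10 with the largest signal value.

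The largest −log10 q, 162, belonged to the site at chr2:242948571-242949524. It held 155 fragments (exact 95% Poisson interval 132 to 181) over a background of 4.92. Its neighbour at chr2:242949862-242952875, the third among the sites, had 170 fragments (145 to 198) over a background of 9.03 and was 3014 bases wide. The summits of this pair were 2999 bases apart, and the nearest GATA4 summit was 634975 bases away from the first of them. The site at chr17:37834234-37835353 had the most fragments of all the sites, 234 (205 to 266), yet its signal value of 10.5 ranked 455, because its background was 21.3 fragments.

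The other sites at the top had an ordinary background. The largest signal value, 38.7, was that of chr16:89252149-89253739, with 83 fragments (66.1 to 103) on the floor of 1.17. It was followed by chr9:110856040-110856986 with 34.2 and 75 fragments, chr9:114389492-114390469 with 32.4 and 87 fragments, and chr4:40578457-40579364 with 31.8 and 83 fragments. Their fragment intervals overlapped, so these 4 sites have no order by fragments beyond counting error. The site at chr20:43052497-43053077 had 87 fragments and a signal value of 25.4, that at chr13:48575249-48575967 had 76 and 27.2, and that at chr14:39735143-39736475 had 73 and 28.0.

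Strong sites were spread over the genome in rough proportion to all HNF4A peaks without GATA4. Of the 5041 such peaks 31.1% were strong (exact 95% interval 29.8 to 32.4%). The shares on the autosomes ran from 22.6% on chromosome 18 (12 of 53 peaks, 12.3 to 36.2%) to 36.2% on chromosome 14 (54 of 149, 28.5 to 44.5%). Chromosome X had 17.5% (10 of 57, 8.75 to 29.9%), chromosome Y had 0 strong among 3 peaks (an interval up to 70.8%), chromosome 19 had 22.9% (36 of 157, 16.6 to 30.3%) and chromosome 4 had 24.0% (58 of 242, 18.7 to 29.9%). Chromosome 17 held 103 sites, or 36.1% (30.6 to 42.0%), and 31.0% once peaks with a background of 5 or more were set aside. The differences between chromosomes were not tested.

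**Figure D2:**
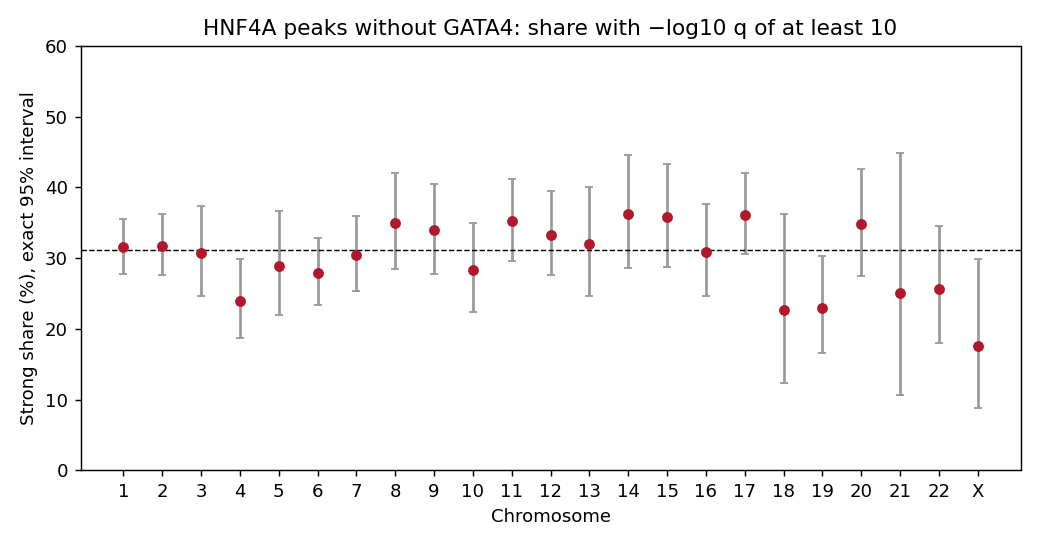
Share of HNF4A peaks without GATA4 that had a −log10 q of at least 10, by chromosome, as points with exact 95% binomial intervals; the dashed line is the share over all such peaks, 31.1%. Of the chromosomes drawn, 1 to 22 and X, chromosomes 14 and 17 have the highest shares and chromosome X, at 17.5%, the lowest.

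A stretch of chromosome 17 carried sites with many fragments over a high background. It was found by joining sites with a background of at least 5 fragments that lay under 3 Mb apart. Its high background was thus set by that choice. Between chr17:36762469 and chr17:39926629, a span of 3.16 Mb, there were 28 sites with a median of 75 fragments over a median background of 17.9. The 1521 sites outside this and the other stretches of high background had medians of 24 fragments and 1.64. The signal value went the other way, with a median of 4.08 in the stretch and 9.10 elsewhere. At a high background the threshold on q asks for more fragments and lets lower signal values pass. These contrasts are thus in part set by the rule. All 47 HNF4A peaks in the stretch, sites included, had a median background of 14.8 and a median signal value of 4.04. The background was uneven along the stretch: 26 of the 28 sites had 5 fragments or more, and the lowest had 1.72. The GATA4 list held 12 peaks in the same stretch, with a median of 48 fragments and a median background of 9.64. This background is on the scale of the GATA4 list, with its floor of 0.791 against 1.17 in the HNF4A list. The copy number of this stretch was not measured here, and its part in the number and strength of the sites was not tested.

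**Figure D3:**
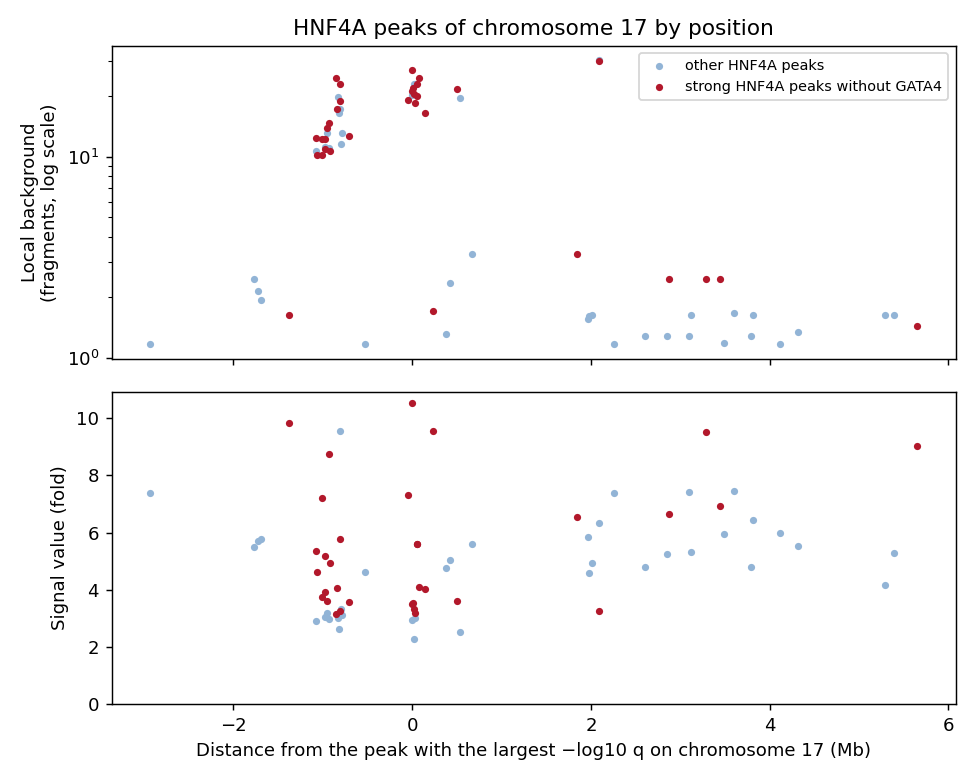
Local background in fragments (top, log scale) and signal value (bottom) of HNF4A peaks on chromosome 17 against distance in Mb from the peak with the largest −log10 q there. Most strong peaks without GATA4 (red) within 1 Mb of it have a background over 10, while those farther than 3 Mb lie mostly under a background of 5.

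Joining sites in the same way gave stretches with a lower background on chromosomes 12 and 16. Between chr12:44152599 and chr12:48359753, a span of 4.21 Mb, 12 sites had a median of 43.5 fragments over a median background of 5.74. Of these sites 8 had a background of 5 or more. The stretch held 36 HNF4A peaks in all, sites included, and 31 GATA4 peaks. Between chr16:27121099 and chr16:27237800, all 6 HNF4A peaks were strong and free of GATA4, with 34 to 57 fragments over backgrounds of 5.37 to 6.66. The GATA4 list held 1 peak in this stretch. In all, 49 of the 1567 sites (3.13%) had a background of at least 5. Of these 49 sites, 2 had a background over 20 away from chromosome 17, chr2:33141309-33141669 with 95 fragments over 26.3 and chr3:38125733-38126194 with 99 over 20.5.

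Close groups of strong sites were rare. Sites were joined into runs by a limit on the gap between neighbouring summits, which left the largest gap within a run at 12137 bases and the smallest between runs at 13189. By this measure 1451 of the 1567 sites stood alone. A further 100 formed pairs, and 1 run each had 3, 4 and 9 sites, so that 116 sites lay in 53 runs. The run of 3 lay in the stretch of chromosome 17 and the run of 4 in that of chromosome 16, both over a high background.

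The run of 9 sites, on chromosome 20, had an ordinary background. RefSeq places the gene of HNF4A itself on this chromosome, but its place relative to the run was not read. The run spanned 27286 bases from the first to the last summit, within chr20:43035833-43063844. It held no other HNF4A peak and no GATA4 peak. Its median signal value was 13.0 and its median number of fragments 38, over a median background of 1.78. The weakest site, chr20:43046847-43047247, had 18 fragments (exact 95% Poisson interval 10.7 to 28.4), and the strongest, chr20:43052497-43053077, had 87 (69.7 to 107). The site at chr20:43057977-43058523 came next with 65 fragments (50.2 to 82.8), followed by chr20:43048191-43048700 with 47 (34.5 to 62.5). Fragments entered the choice of the sites, so these values describe the run and no difference within it was tested. The nearest GATA4 summit lay 1256 bases before the first site, outside the run. Which gene the run lies in was not read here, for want of an annotation of the build.

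**Figure D4:**
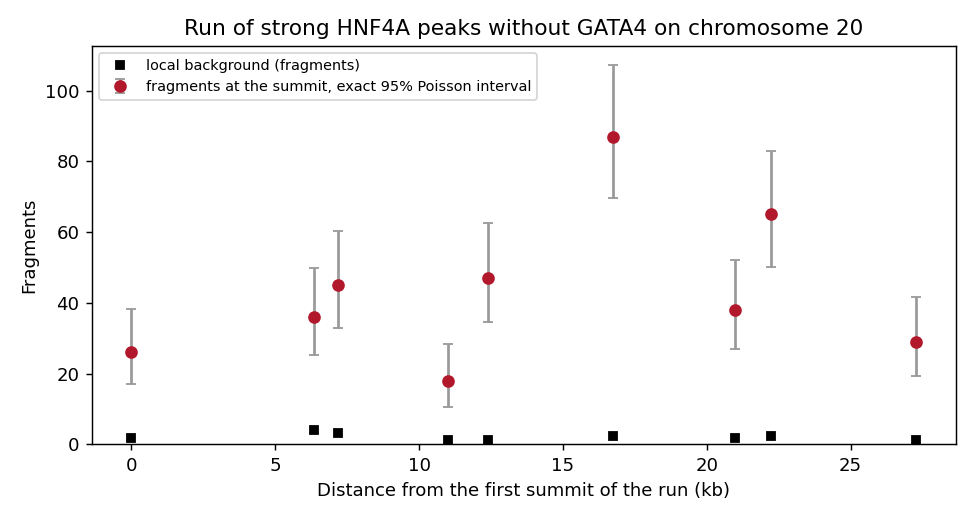
Fragments at the summit with exact 95% Poisson intervals (red) and local background in fragments (black) of the 9 strong HNF4A peaks without GATA4 in the run on chromosome 20, by distance in kb from its first summit. All 9 summits lie above the background, between 18 and 87 fragments.

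Over windows of 1 Mb, the densest were the 2 on chromosome 17 within or next to the stretch of high background, with 15 and 12 sites. The other 3 windows held 11 sites each over an ordinary background. The window at chr17:72744195-73693615 had a median signal value of 8.92 over a median background of 1.5. That at chr2:219129498-220072037 had 8.10 over 2.13. That at chr20:42980280-43063844, which takes in the run of 9 sites, had 10.7 over 1.63.

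The rule left out every HNF4A peak that overlaps GATA4, both strong and weaker, so that the short distances to GATA4 are in part set by the choice of sites. The median distance from the summits of the strong sites to the nearest GATA4 summit was 226867 bases, and 1 in 10 lay within 15561 bases. A GATA4 summit was within 1 kb of 8 sites (0.511%, exact 95% interval 0.221 to 1.003%), within 10 kb of 108 (6.89%, 5.69 to 8.26%) and within 100 kb of 493 (31.5%, 29.2 to 33.8%). For the weaker HNF4A peaks without GATA4 these shares were 1.01% (0.703 to 1.40%), 5.81% (5.06 to 6.65%) and 27.8% (26.3 to 29.3%). The intervals of both kinds of peak overlapped at these 3 distances, and without peaks of high background 29.8% of the strong sites lay within 100 kb. Within 1000 kb the shares were 87.4% of the strong sites (85.6 to 89.0%) and 83.4% of the weaker peaks (82.1 to 84.6%), and these intervals did not overlap. The weaker peaks had a median distance of 269986 bases and a first decile of 21541, both longer than those of the strong sites. The difference between the distances was not tested. The closest case was chr2:219262863-219263276, 381 bases from a GATA4 summit, and the farthest chr10:135191879-135192678, at 15369694 bases.

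**Figure D5:**
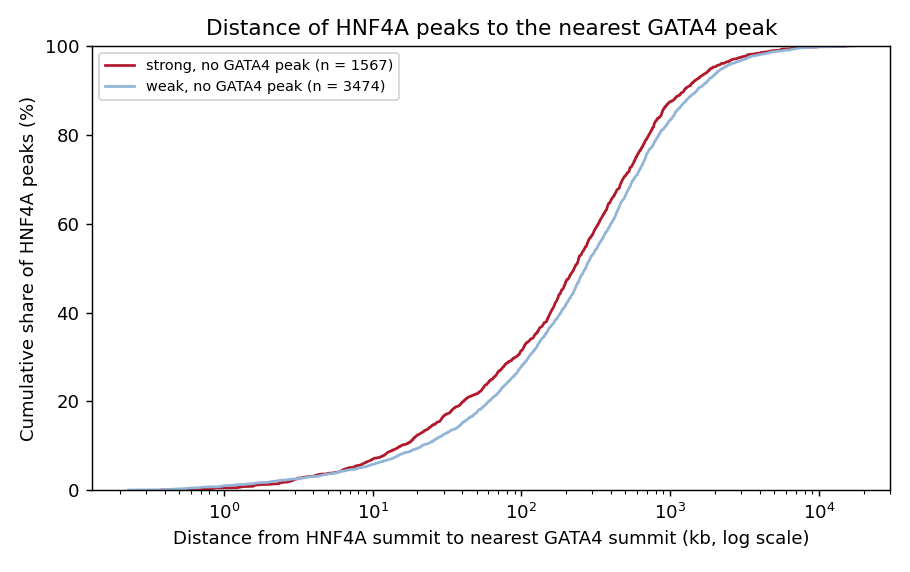
Cumulative share of HNF4A peaks against the distance from their summit to the nearest GATA4 summit in kb (log scale), for the 1567 strong (red) and 3474 weaker (blue) peaks without GATA4. At 100 kb the curves stand at 31.5% and 27.8%.

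The GATA4 peak nearest to a strong site overlapped another HNF4A peak in a minority of cases. Among the 493 sites with a GATA4 summit within 100 kb, the nearest GATA4 peak was shared with some other HNF4A peak in 137 cases (27.8%, exact 95% interval 23.9 to 32.0%). For the 966 weaker peaks at such a distance the share was 22.4% (19.8 to 25.1%), and over all 2607 GATA4 peaks it was 17.4% (15.9 to 18.9%). Some GATA4 peaks were nearest to several sites, and the 493 sites had 406 different ones, of which 111 were shared. The intervals of the strong and the weaker peaks overlapped, and the difference from all GATA4 peaks was not tested.

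Distances to the next HNF4A peak are taken over a list of 5494 peaks, and those to GATA4 over one of 2607, and the rule left out every site that overlaps a GATA4 peak, so the distances are not compared with each other. The median distance from a strong site to the next HNF4A summit was 62032 bases, against 73674.5 bases for the weaker peaks without GATA4, and 946 strong sites (60.4%, exact 95% interval 57.9 to 62.8%) had one within 100 kb, against 57.5% of the weaker peaks (55.9 to 59.2%). At short range the order was the other way: within 1 kb lay 1.72% of the strong sites (1.14 to 2.50%) and 4.38% of the weaker peaks (3.72 to 5.11%), and the first deciles were 4823 and 4129 bases. The strong sites were thus not the closer class at every distance, and the differences were not tested. The strong sites were also wider, with a median of 573 bases against 369 for the weaker peaks. The part of width in these shares was not tested. Of the 946, 319 (33.7%) had another strong site without GATA4 as neighbour, a class that made up 28.5% of all HNF4A peaks. A weaker peak without GATA4 was the neighbour in 540 cases (57.1%, against 63.2% of all HNF4A peaks). Peaks shared with GATA4 were the neighbour in 42 strong cases (4.44%, against 3.82%) and 45 weaker cases (4.76%, against 4.42%).

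At every strength, sites without GATA4 were the larger part of the HNF4A peaks. Among the 844 HNF4A peaks with a −log10 q from 10 to 15, 9.60% overlapped GATA4 (exact 95% interval 7.69 to 11.8%), and 763 did not. The shared part was 9.75% from 15 to 20 (7.03 to 13.1%), 18.4% from 20 to 30 (14.2 to 23.2%), 12% from 30 to 50 (7.40 to 18.1%) and 21.5% among the 65 peaks of at least 50 (12.3 to 33.5%). Below 10 it was 6.54% (5.76 to 7.38%). The choice of the sites used both strength and overlap, so these shares are a description, and no trend was tested. Over all 1777 strong HNF4A peaks 11.8% were shared (10.4 to 13.4%). Stronger sites were also wider, with a Spearman rho of 0.447 between −log10 q and width over the 1567 sites, and the part of width in the overlaps was not tested.

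RNA of both factors was measured in the same cell line. HNF4A had 4129 and 3937 normalized counts in the control libraries, and 1140 and 932 after knockdown. The libraries of both groups were far apart, and the log2 fold change was -1.97 (standard error 0.095, adjusted p of 1.59e-05 in limma). For GATA4 the control libraries gave 745 and 597 and the knockdown libraries 553 and 432, a log2 fold change of -0.45 that missed the threshold of 0.05 (adjusted p of 0.0709 in limma). ChIP-seq after knockdown was not analysed here, so the sites have no value with HNF4A lowered.

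Genes regarded in general as targets of HNF4 factors in hepatic and intestinal epithelium were read as expression data, with no link from a site to a gene. The list was chosen with earlier results of these data known, so its share of calls is not independent of those results. Of 45 symbols 28 passed the filter of a mean of at least 10 normalized counts, and 11 of the 28 were called at an adjusted p under 0.05 in limma. After knockdown 5 were higher and 6 lower. The background was 14.1% called among the 15577 genes tested, with 6.02% higher and 8.11% lower. The list had a median log2 fold change of 0.062, against -0.0073 for all genes, so it held calls in both directions with no shared direction. The calls rest on the setting of the test: without a variance trend limma called 0 genes, HNF4A included (adjusted p of 0.0919), with 3524 genes at an unadjusted p under 0.05, and without the filter on low values 4 genes of the list were called. With 1 library left out the list had 6 to 11 calls, with 6 when siHNF4A replicate 1 or siHNF4A replicate 2 was missing.

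Markers of other cell types stood low beside these values. The 6 epithelial markers, among them EPCAM and KRT8, summed to 88052 to 93187 normalized counts in the control and 79914 to 80053 in the knockdown libraries. The fibroblast markers listed, 3 of 4, summed to 122 to 195 and to 223, the endothelial ones, 2 of 3, to 15.2 to 24.6 and 47.2 to 64.0, the blood cell ones, 2 of 4, to 6.43 to 13.2 and 15.4 to 17.6, and the squamous ones, 2 of 3, to 14.4 to 33.3 and 18.4 to 36.2. Fibroblast, endothelial and blood cell markers were thus higher in both knockdown libraries than in both controls, and their part in the calls on the list was not tested.

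Among the genes that fell, CLDN2, a pore-forming protein of tight junctions, went from 416 and 495 normalized counts to 235 and 210 (log2 fold change -1.03, adjusted p of 0.00162 in limma). SLC7A9, a subunit of a cystine transporter, went from 185 and 192 to 56.1 and 61.2 (log2 fold change -1.67), and AGMAT, a mitochondrial hydrolase, from 1135 and 1235 to 698 and 681 (-0.78). Among those that rose, MUC13, a transmembrane mucin of the gut, went from 7486 and 7702 to 10193 and 10443 (log2 fold change 0.44, adjusted p of 0.000817 in limma). These 4 genes kept their calls with any 1 library left out. MYO7B, a brush border myosin, had a log2 fold change of -0.54 and ANPEP, a brush border peptidase, one of -1.56. HNF4G, the close relative of HNF4A, had 0.35, CDH17, an intestinal cadherin, 0.20, FBP1, an enzyme of gluconeogenesis, 0.58 and SI, the sucrase-isomaltase of the brush border, 0.72.

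These last 6 calls depended on single libraries. ANPEP and CDH17 lost theirs without control replicate 1, FBP1 and SI without control replicate 2, ANPEP, HNF4G, CDH17, FBP1 and SI without siHNF4A replicate 1, and MYO7B, HNF4G, CDH17, FBP1 and SI without siHNF4A replicate 2. Of the 10 genes named 6 overlap another RefSeq gene, and no source used here says whether strand was taken into account in counting. Nothing says that the libraries of a group came from separate cultures, so these p-values may measure technical spread alone.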

How the data were processed

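ChIP-seq peak lists of HNF4A and of Flag-tagged GATA4 (1 library each) and a table of 4 RNA-seq libraries were used. The submitters' processing notes name Trim Galore, Bowtie, Bowtie2, Picard, MACS2 and hg19, without roles, versions or an input control. The authors deposited for each peak a fold (signal value, a ratio), a −log10 p, a −log10 q and a score, which is 10 times that −log10 q with its decimals dropped. The RNA-seq values are normalized counts, a signal the authors deposited without a stated method, so the depth of these libraries is unknown. The total reads of the ChIP-seq libraries are likewise unknown, and precision is given by the fragments at each summit.

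Overlaps, distances between summits, fragments at summits and exact intervals (Clopper-Pearson for shares, Poisson for fragments, level 95%) were computed in Python 3.11.15 with scipy 1.17.1. The recovery of fragments was tested on simulated data. Genes averaging 10 or more across the 4 libraries were fitted together with limma 3.58.1 in R 4.3.3 on log2(value + 1) with an intensity trend and Benjamini-Hochberg adjustment. The replicate numbers were not taken to pair libraries, because they are not stated to mark a shared batch. Deviations of same-numbered libraries had a correlation of -0.019.

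The sites and gene lists were chosen with earlier results of these data known. Regions named are the 10 sites with the largest −log10 q, those at the threshold, the longest run, the densest windows and sites at the ends of a measure. The list genes named are those called, except 1 that is not reported here. The sites at the ends of a measure, the fragment recovery, the stretches of high background and their limit of 5 were chosen after the values were seen. Planned counts of motifs, gene positions and genes near the sites needed a genome of the build and were not run.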

Additional observations from a re-analysis of the deposited data

How the results depend on the processing

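The number of sites, 1567, depended most on the q threshold: a −log10 q of at least 5 gave 3916 sites, at least 15 gave 804 and at least 20 gave 443. Other definitions of a GATA4 overlap gave between 1552 and 1668. A signal value of at least 8 in place of q, chosen after the data were seen, gave 1153 peaks, which included 73.6% of the sites. The 116 sites in runs became 26 of the 443 sites with a −log10 q of at least 20, and 53 with gaps of at most 5 kb. The share of sites within 100 kb of GATA4 lay between 29.8% and 32.1% in the 3 alternatives run, 2 of which were added later. The log2 fold change of HNF4A lay between -2.11 and -1.82 with any 1 library left out and was -1.97 with an adjusted p of 0.0919 in limma without the variance trend, its only loss of the call. In that fit 0 genes, and 0 of the HNF4 target list, were called, with 3524 genes at an unadjusted p under 0.05; the cause was not tested. Without the filter, with 30247 genes tested in place of 15577, 726 genes and 4 of the list were called. With 1 library left out, between 1013 and 2449 genes and between 6 and 11 of the list were called, the lowest counts without siHNF4A replicate 2 (1013 and 6) and siHNF4A replicate 1 (1101 and 6). The replicate block gave 2428 genes and 12 of the list, and HNF4A at -1.97. The replicate numbers are not stated to pair the libraries. Of 109 values of the 10 list genes named under alternatives, 31 lost the call, 10 of them without the trend, and none changed direction. Alternatives for motifs and neighbouring genes were not run.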
